A study of Homo sapiens with 8 samples.

Results

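Keratins are the proteins of the intermediate filaments of epithelial cells. Each filament is built from pairs of 1 acidic type I chain and 1 basic type II chain, so a cell normally makes both kinds, and the pair made depends on the epithelium. KRT8 and KRT18 form the general pair of simple epithelia such as the gut lining, KRT19 and KRT20 are further type I chains of the intestine, stratified epithelia use KRT5 and KRT14 in the basal layer and other pairs above it, and a separate set is made in hair and nails. Because of this, keratins are widely used to read the epithelial state of a carcinoma.

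The keratin genes were taken as all non-control probes whose gene name on the array was KRT, a number and at most 1 letter from A to C. This gave 64 probes of 55 genes among 50599 non-control probes. The genes lie in 2 clusters. Coordinates are those of the array annotation (hg19). On chromosome 12, 32 probes of 27 genes spanned positions 52563485 to 53346554, the type II genes plus KRT18. On chromosome 17, 32 probes of 28 genes, all type I, spanned positions 38812755 to 39777035.

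RNA came from HCT-116, a human colorectal carcinoma cell line, and was hybridised to 1-colour Agilent arrays, 2 per group. WT was the untreated parental line, WT+NU6102 the parental line given 20 μM of the CDK1/CDK2 inhibitor NU6102 for 24 h, CDK2-/- an untreated line with the CDK2 gene disrupted, and R50 a line selected for resistance to NU6102 and kept in 50 μM of it. Knockout and resistant cells were thus each 1 derived line. Whether drug was present when R50 RNA was taken is not given in the sources used here. In R50 against WT, the line and its exposure to drug cannot be told apart. The labels do not say that duplicates were separate cultures, so the p-values measure only the spread between these arrays. WT and WT+NU6102 were on 1 slide and CDK2-/- and R50 on the other, so in comparisons of CDK2-/- or R50 with WT the slide and the group cannot be told apart.

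Values are log2 signals relative to the 75th percentile of the same array, so a value of 0 is the level of that percentile and a difference of 1 is 2-fold. They compare a probe between groups, not 1 probe with another. Testing required a signal well above background in both duplicates of 1 or more groups. That left 35 keratin probes of 30 genes among 28677 probes, and 26 of the 35 passed that detection limit on every one of the 8 arrays. A probe was called when its Benjamini-Hochberg adjusted p from limma, over all 28677 probes, was under 0.05. A gene was represented by its tested probe of highest mean signal.

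Duplicates correlated at 0.9937 to 0.9958 over the tested probes, no spot was saturated, and 29 to 37 keratin probes were well above background per array. The CDK2 probe read -0.76 and -0.76 in WT, -0.44 and -0.42 in WT+NU6102, -1.56 and -1.51 in CDK2-/- and -1.10 and -1.09 in R50. It was thus lowest in the knockout, with a log2 fold change of -0.77 ± 0.0443 (SE) against WT (limma adjusted p = 0.000268), although whether the probe lies in the disrupted part is not given in the sources used here. EPCAM, an epithelial surface marker, was detected on all 8 arrays, whereas VIL1, which codes for the brush border protein villin, was not well above background on any. Of 7 listed epithelial markers, 6 were tested. Of these, 2 were higher and 3 lower than WT with NU6102, 4 higher and 0 lower in CDK2-/-, and 4 higher and 0 lower in R50. Over all tested genes the shares were 24.4% and 21.0%, 16.6% and 14.7%, and 10.3% and 13.0%.

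The 60-base probes stand for the transcripts that the results turn on. Below are the first 30 bases of some of them, 5′ to 3′ in the sense of the mRNA. These probes carried the simple-epithelium pair, several of the larger differences, and the pair of hair keratins that neighbour each other but read differently. KRT14, with the largest difference of R50 against CDK2-/-, and KRT31 are not printed.
KRT8 (chr12:53291026-53291085, minus strand): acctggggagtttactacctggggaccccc
KRT18 (chromosome 12, plus strand): gaggacttcattcttggtgatgccttggac
KRT20 (chr17:39032532-39032591, minus strand): tgctgaggttttgaaagaaatttggctata
KRT23, brighter probe (chr17:39078962-39079021, minus strand): tttcctactgcagccttcagattctcatca
KRT23, dimmer probe (chr17:39081720-39081779, minus strand): ctgcaagctccaggacatgcaagagatcat
KRT6A (chr12:52881087-52881146, minus strand): acaacttccacttactttccactggctctc
KRT13 (chromosome 17, minus strand): agatcctgaccgccaccattgaaaacaacc
KRT80 (chr12:52563485-52563544, minus strand): ccaagggagcaaatcctcagtggggataca
KRT86 (chr12:52702840-52702897, plus strand): ctccttccggggctgccctcaagagcttct
KRT83 (chr12:52709702-52709761, minus strand): agtaccaggaggtgatgaactccaagctag
The KRT18 and KRT13 probes have wider listed spans, 53346116 to 53346554 and 39659920 to 39661309. No probe of 1 keratin gene shared a run of 20 or more bases with a probe of another. The longest run that the KRT6A probe shared with the probes of its close relatives KRT6B and KRT6C was 5 bases. Probes were compared only with other probes, so whether the KRT6A probe matches KRT6B or KRT6C transcripts was not tested. The KRT83 probe is different in another way, because its annotation lists transcripts of 4 hair keratin genes, KRT81, KRT83, KRT85 and KRT86, so its value cannot be assigned to KRT83 alone.

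The 4 groups had distinct keratin profiles. In the moderated F-test over the groups, 16 of the 35 keratin probes had an adjusted p under 0.001, against 21.2% of all tested probes. Under 24 h of NU6102, the stress keratin KRT6A rose above background, KRT8 and KRT18 rose, and KRT20 and KRT23 fell. In CDK2-/- cells KRT23, KRT7, KRT19 and KRT31 were higher. In R50 cells the mucosal pair KRT13 and KRT4, KRT80, KRT86, KRT8 and KRT18 were higher, and KRT20 was the single keratin called lower. The F-test count was sensitive to the number of arrays, since leaving out any 1 of the 8 arrays reduced it to between 6 and 7.

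**Figure D1:**
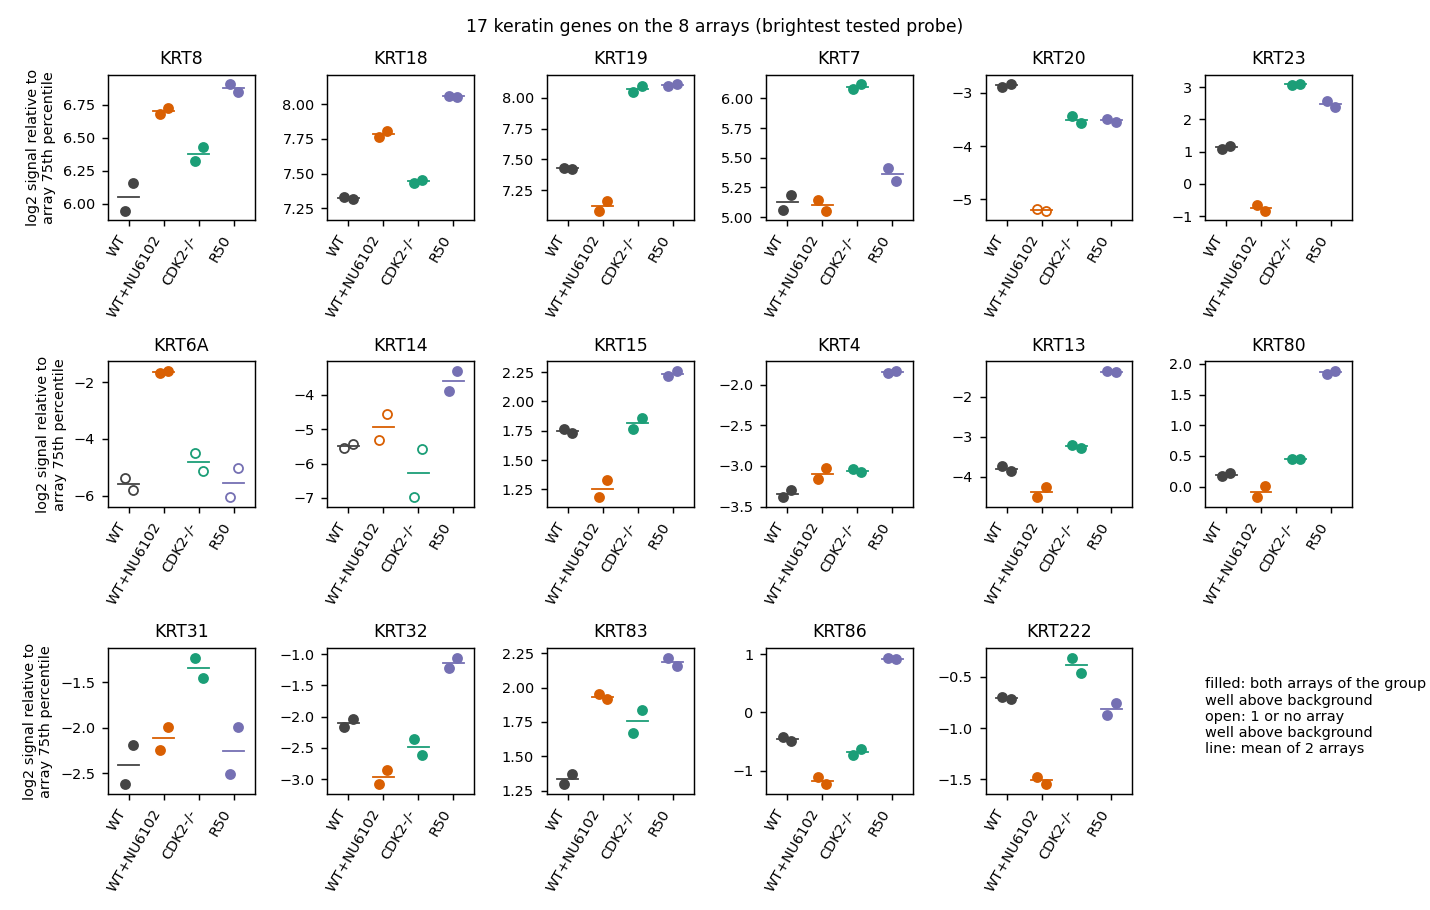
Signal of 17 keratin genes on the 8 arrays, as log2 relative to the 75th percentile of the array, with a separate vertical scale in each panel. Points are arrays, lines are means of 2 arrays, and open points mark groups where at most 1 array was well above background. KRT6A is high in WT+NU6102 alone, KRT20 is highest in WT, and KRT13, KRT4, KRT80 and KRT86 are highest in R50.

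Against WT, NU6102 treatment gave 8 keratin probes higher, where 23.8% of all tested probes were higher, and 10 lower, where 21.0% of all were lower. A difference of at least 2-fold was called for 3 keratin probes (6.49% of all probes), KRT6A upwards and KRT20 and KRT23 downwards. By gene, 5 of 30 were higher (KRT6A, KRT8, KRT83, KRT18 and KRT4) and 9 lower (KRT20, KRT23, KRT32, KRT222, KRT86, KRT13, KRT15, KRT19 and KRT80). Of 16 tested type I genes 1 was higher and 7 lower, with a median log2 fold change of -0.41, and of 14 type II genes 4 were higher and 2 lower, with a median of 0.06. Over all tested probes the median was 0.03. Whether the types differed was not tested.

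CDK2-/- cells had 11 keratin probes higher than WT (16.1% of all tested probes were higher) and 1 lower (15.0% of all). At 2-fold or more there were 3 (4.75% of all), namely both KRT23 probes and KRT31, all higher. Counted by gene, 10 of 30 were higher (KRT23, KRT31, KRT7, KRT19, KRT13, KRT83, KRT8, KRT222, KRT4 and KRT80), and only KRT20 was lower. Of 16 type I genes 5 were higher and 1 lower, and of 14 type II genes 5 were higher and 0 lower. Several of these calls, those of KRT31, KRT83, KRT8, KRT222, KRT4 and KRT80, were lost without WT replicate 1. This loss was not particular to keratins, since fewer of all tested probes were called in that setting too.

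In R50, 16 keratin probes were higher than WT, against 9.80% of all tested probes, and 1 was lower, against 12.9% of all. At 2-fold or more, 5 were called (2.59% of all), KRT13, KRT80, KRT4, KRT86 and KRT23, and all of them were higher. The median log2 fold change was 0.43 over the 35 keratin probes and -0.04 over all tested probes. By gene, 12 of 30 were higher, 7 of type I and 5 of type II, and 1 was lower. Counted once per gene the median was 0.19, since KRT8, KRT18 and KRT23 have several probes each.

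R50 and CDK2-/- lay on the same slide, and here 13 keratin probes were higher in R50 (14.9% of all tested probes) and 5 lower (19.8% of all). There were 6 at 2-fold or more (5.19% of all), all higher in R50: KRT14, KRT13, KRT86, KRT80, KRT32 and KRT4. By gene, 10 were higher, and 4 were lower (KRT31, KRT7, KRT23 and KRT222). This comparison and that of R50 with WT share the R50 arrays, and the 3 comparisons with WT share the WT arrays, so their results are not independent of each other.

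**Figure D2:**
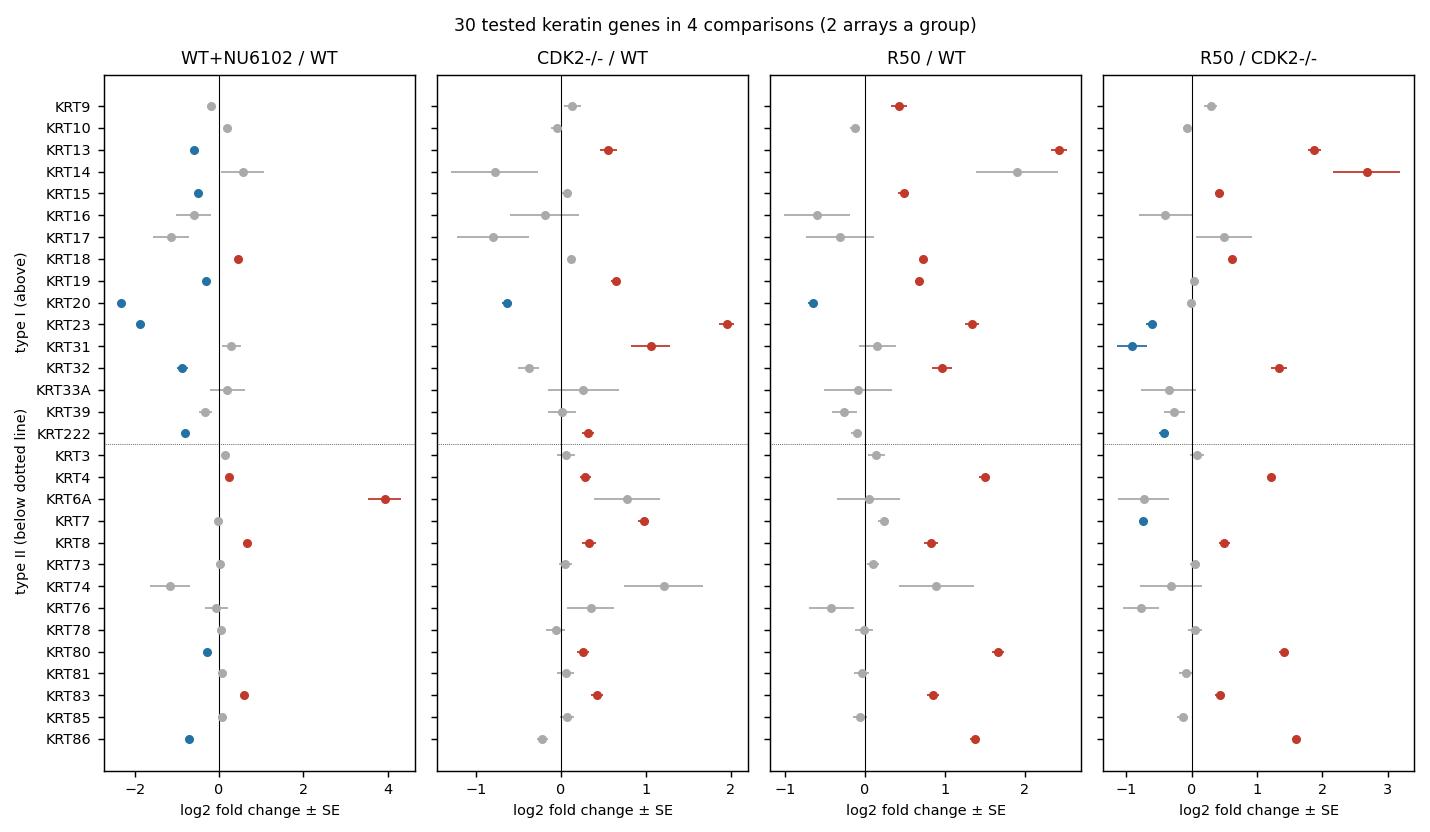
Log2 fold change ± SE of the 30 tested keratin genes in the 4 comparisons, with type I genes above and type II genes below the dotted line. Red points were called higher, blue points lower, and grey points were not called. The NU6102 panel has points on both sides of 0, while called points against WT in CDK2-/- and R50 lie to the right except for KRT20.

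KRT8 and KRT18, the type II and type I chains of the simple-epithelium filament, ranked the 4 groups alike. KRT8 read 5.95 and 6.15 in WT, 6.68 and 6.72 in WT+NU6102, 6.32 and 6.43 in CDK2-/-, and 6.91 and 6.85 in R50. KRT18 read 7.33 and 7.32 in WT, 7.76 and 7.81 in WT+NU6102, 7.43 and 7.46 in CDK2-/-, and 8.06 and 8.05 in R50. For both genes WT was lowest, then CDK2-/-, then WT+NU6102, then R50, with no overlap between neighbouring groups. With NU6102 the log2 fold change was 0.65 ± 0.0844 for KRT8 (limma adjusted p = 0.00206) and 0.46 ± 0.0441 for KRT18 (limma adjusted p = 0.000774). In R50 it was 0.83 ± 0.0844 for KRT8 (limma adjusted p = 0.0032) and 0.73 ± 0.0441 for KRT18 (limma adjusted p = 0.000645). Both genes were also higher in R50 than in CDK2-/-, by 0.50 and 0.61. The step from WT to CDK2-/- was the uncertain one. KRT18 did not pass there (0.12 ± 0.0441, limma adjusted p = 0.0927). KRT8 did pass at 0.33 (limma adjusted p = 0.0351), but not after leaving out any 1 of the arrays other than WT replicate 2.

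The other probes of these genes gave the same picture outside CDK2-/-. A second KRT18 probe was higher by 0.63 with NU6102, 0.90 in R50 against WT and 0.82 in R50 against CDK2-/-. The other 2 KRT8 probes were higher by 0.30 and 0.49 with NU6102, by 0.64 and 0.69 in R50 against WT, and by 0.67 and 0.56 in R50 against CDK2-/-. All of these were called. For CDK2-/- against WT, by contrast, the same 2 KRT8 probes read -0.033 and 0.12 and the second KRT18 probe 0.08, none of them called. The KRT8 probe at -0.033 lies at chr12:53343241-53343300, 52.2 kb from the brightest KRT8 probe and 2.3 kb from a KRT18 probe on the opposite strand, and its annotation lists Ensembl transcripts only.

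**Figure D3:**
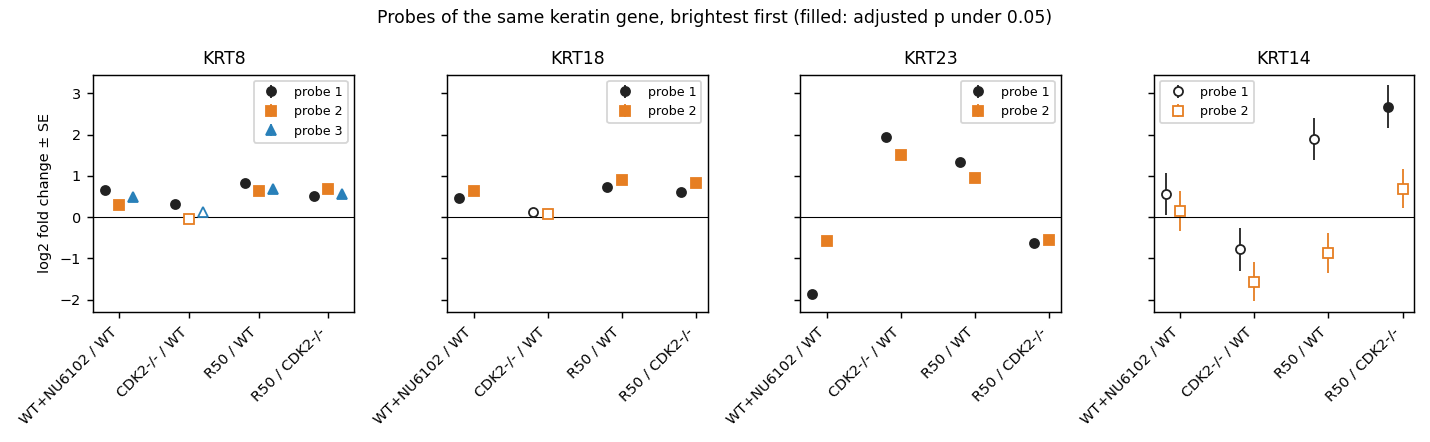
Log2 fold change ± SE for each tested probe of 4 keratin genes with several probes, brightest probe first. Filled symbols were called. The probes of KRT18 and KRT23 lie on the same side of 0 in every comparison, those of KRT8 in every one but CDK2-/- against WT, and those of KRT14 lie on opposite sides in R50 against WT.

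KRT19, the smallest keratin, pairs with type II chains in simple epithelia. Its values were 7.43 and 7.42 in WT, 7.09 and 7.16 in WT+NU6102, 8.05 and 8.09 in CDK2-/-, and 8.10 and 8.11 in R50. It was thus lowest under acute drug, and high to a near equal extent in both derived lines. The log2 fold change was -0.30 ± 0.0499 with NU6102 (limma adjusted p = 0.00493), 0.64 in CDK2-/- (limma adjusted p = 0.000683) and 0.68 in R50 (limma adjusted p = 0.0012). Between R50 and CDK2-/- it was 0.03 ± 0.0499, which did not pass.

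KRT7, a type II chain of ductal and glandular epithelia, separated CDK2-/- from the rest. Its readings were 5.06 and 5.19 in WT, 5.14 and 5.06 in WT+NU6102, 6.08 and 6.12 in CDK2-/-, and 5.41 and 5.31 in R50. Untreated and treated parental cells overlapped, and R50 lay just above them. In CDK2-/- the gene was 1.96-fold higher than in WT, a log2 fold change of 0.97 ± 0.07 (limma adjusted p = 0.000548). R50 was 0.74 lower than CDK2-/- on this scale (limma adjusted p = 0.00114), and its difference from WT, 0.24, did not pass (limma adjusted p = 0.065).

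KRT20, a marker of differentiated intestinal epithelium, was highest in WT. It read -2.88 and -2.84 there, -5.17 and -5.21 in WT+NU6102, -3.44 and -3.56 in CDK2-/-, and -3.49 and -3.54 in R50. Neither WT+NU6102 array was well above background, so the treated level has only an upper bound. Against that bound KRT20 was at least 4.29-fold lower with NU6102 (limma adjusted p = 8.54e-05). This size depended on the background correction: with normexp correction, which adds an offset of 50 to every intensity, the log2 fold change of KRT20 was -0.79 with NU6102, -0.34 in CDK2-/- and -0.31 in R50, all still called. The derived lines sat between the other groups and overlapped each other, with log2 fold changes against WT of -0.64 in CDK2-/- (limma adjusted p = 0.0012) and -0.66 in R50 (limma adjusted p = 0.0022). KRT20 was the only keratin gene called lower than WT in all 3 of these comparisons.

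KRT23, a type I keratin, had the widest spread of the keratins that were above background on all arrays. Its brighter probe read 1.09 and 1.17 in WT, -0.66 and -0.83 in WT+NU6102, 3.08 and 3.08 in CDK2-/-, and 2.56 and 2.37 in R50. No groups overlapped: WT+NU6102 lay below WT, and both derived lines above it. Treatment lowered it 3.65-fold, a log2 fold change of -1.87 ± 0.0897 (limma adjusted p = 0.000154). CDK2-/- was 3.87-fold above WT, 1.95 ± 0.0897 (limma adjusted p = 0.000142), and R50 was 2.53-fold above it, 1.34 ± 0.0897 (limma adjusted p = 0.000899). Between the lines R50 was the lower by 0.61 (limma adjusted p = 0.00481). The dimmer probe, printed above, read -2.35 and -2.47 in WT, -2.94 and -3.05 in WT+NU6102, -0.91 and -0.90 in CDK2-/-, and -1.40 and -1.53 in R50. It kept the order of the 4 groups, but its log2 fold change with NU6102 was smaller, at -0.58, than those in CDK2-/- (1.51) and R50 (0.94).

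KRT6A belongs to the keratins that stratified epithelia switch on upon wounding or stress, together with KRT16 and KRT17. It read -5.37 and -5.79 in WT, -1.67 and -1.62 in WT+NU6102, -4.48 and -5.11 in CDK2-/-, and -6.05 and -5.01 in R50. Both WT+NU6102 arrays were well above background, against neither array in WT and R50 and 1 in CDK2-/-. KRT6A was therefore at least 9.86-fold higher with NU6102 than the detection bound in WT (limma adjusted p = 0.000849). With normexp correction its log2 fold change was 1.76, still called. R50 cells, from a line maintained in the same compound, did not differ detectably from WT (0.05 ± 0.388, limma adjusted p = 0.949), and both groups lay under the bound. The related genes KRT6B and KRT6C were not above background on any array. KRT16 read -3.85 and -4.29 in WT and -5.10 and -4.24 in WT+NU6102, and the groups overlapped (limma adjusted p = 0.289). KRT17 read -4.31 and -4.71 in WT and was not well above background in the other groups, with limma adjusted p = 0.0787 for WT+NU6102 against WT. KRT6A was thus called upwards with NU6102 whereas neither of its usual type I partners was.

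Of the basal-layer keratins, KRT5 was not above background on any array. KRT15, a type I chain of basal keratinocytes and hair follicle stem cells, read 1.76 and 1.73 in WT, 1.18 and 1.33 in WT+NU6102, 1.77 and 1.86 in CDK2-/-, and 2.21 and 2.26 in R50. It was lower with NU6102 by 0.49 (limma adjusted p = 0.00276) and higher in R50 by the same amount, 0.49 ± 0.0689 (limma adjusted p = 0.00817), with WT and CDK2-/- in between (0.07, limma adjusted p = 0.52). KRT14, the type I partner of KRT5, was near background, and its probes disagreed. The brightest read -5.56 and -5.44 in WT, -5.32 and -4.56 in WT+NU6102, -6.99 and -5.58 in CDK2-/-, and -3.89 and -3.31 in R50, and only in R50 were both arrays well above background. R50 was at least 2.85-fold above CDK2-/- (limma adjusted p = 0.012), a call lost without R50 replicate 2. The fitted KRT14 log2 fold change of 2.68 was 1.98 without CDK2-/- replicate 1, 3.38 without CDK2-/- replicate 2 and 0.76 with normexp correction. The KRT14 difference between R50 and WT missed the threshold (limma adjusted p = 0.0502). It passed in 6 of 14 alternative settings, among them the replicate number as a block (limma adjusted p = 0.0239). It did not pass with the deposited processed values, with no filter on dim probes, or without any 1 array of WT, WT+NU6102 or R50. A second KRT14 probe was well above background on both arrays of WT and WT+NU6102 and on none of CDK2-/- and R50, with no call. It shared a run of 33 bases with a probe of no gene name.

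KRT4 and KRT13 are the pair of the layers above the basal one in moist stratified epithelia such as the oesophagus. KRT13 read -3.73 and -3.86 in WT, -4.52 and -4.25 in WT+NU6102, -3.20 and -3.28 in CDK2-/-, and -1.35 and -1.38 in R50. KRT4 read -3.39 and -3.30 in WT, -3.17 and -3.03 in WT+NU6102, -3.04 and -3.08 in CDK2-/-, and -1.85 and -1.84 in R50. For both genes R50 stood apart above the other 3 groups. KRT13 was 5.39-fold higher in R50 than in WT, 2.43 ± 0.1 in log2 (limma adjusted p = 0.000296), and KRT4 was 2.82-fold higher, 1.50 ± 0.0654 (limma adjusted p = 0.000316). With normexp correction these log2 fold changes were 1.62 and 0.95, both still called. Against CDK2-/-, on the same slide, KRT13 was 3.67-fold and KRT4 2.32-fold higher in R50 (limma adjusted p = 0.000198 and 0.000203). Acute drug did not move them alike, as KRT13 fell by 0.59 (limma adjusted p = 0.00564) while KRT4 read 0.24 above WT (limma adjusted p = 0.0286). With normexp correction KRT13 fell by 0.24, still called, and KRT4, at 0.11, was not called. The KRT4 call with NU6102 was lost within the slide alone and without any 1 of 5 arrays (both of WT, both of CDK2-/-, and WT+NU6102 replicate 2), and its call in CDK2-/- (0.28) was lost without any array of WT or CDK2-/-. The KRT13 call in CDK2-/- (0.56, limma adjusted p = 0.0111, and 0.31 with normexp correction) was lost without WT replicate 2 or CDK2-/- replicate 1.

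KRT80, a type II keratin of many epithelia that lies at the outer end of the chromosome 12 cluster, had the same R50 pattern. It read 0.17 and 0.22 in WT, -0.17 and 0.01 in WT+NU6102, 0.45 and 0.45 in CDK2-/-, and 1.84 and 1.88 in R50. R50 was 3.17-fold above WT, 1.66 ± 0.0708 in log2 (limma adjusted p = 0.000309), and 2.66-fold above CDK2-/- (limma adjusted p = 0.000164). The smaller differences of KRT80, -0.28 with NU6102 and 0.25 in CDK2-/-, were each lost without either WT array. The NU6102 call was also lost without WT+NU6102 replicate 1 and within the slide alone, and the CDK2-/- call without any 1 array of CDK2-/- or R50. KRT9, a suprabasal keratin of palms and soles, was called in 1 comparison, R50 against WT (0.43, limma adjusted p = 0.0308), and lost that call without any 1 array of WT, WT+NU6102 or R50, and with the replicate number as a block (limma adjusted p = 0.0512). KRT10, KRT3, KRT76 and KRT78 from the same layer group were not called anywhere.

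Among the hair and nail keratins, 8 of 17 genes were tested. KRT86 read -0.43 and -0.49 in WT, -1.11 and -1.24 in WT+NU6102, -0.73 and -0.63 in CDK2-/-, and 0.93 and 0.91 in R50. It was 2.60-fold higher in R50 than in WT, 1.38 ± 0.0659 in log2 (limma adjusted p = 0.000382), 3.03-fold higher in R50 than in CDK2-/- (limma adjusted p = 9.6e-05), and lower with NU6102 by 0.72 (limma adjusted p = 0.000689). The type I gene KRT32 followed it: -2.16 and -2.04 in WT, -3.08 and -2.86 in WT+NU6102, -2.36 and -2.61 in CDK2-/-, and -1.22 and -1.06 in R50. Its log2 fold change was -0.87 with NU6102 (limma adjusted p = 0.00289, and -0.58 with normexp correction), 0.96 in R50 (limma adjusted p = 0.00617) and 1.34 between R50 and CDK2-/- (limma adjusted p = 0.00103). Both hair keratins were thus lowest under acute drug and highest in the resistant line.

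The tested KRT83 probe behaved differently from that of KRT86, although its annotation includes KRT86. It read 1.30 and 1.37 in WT, 1.95 and 1.92 in WT+NU6102, 1.67 and 1.84 in CDK2-/-, and 2.22 and 2.16 in R50. It was higher with NU6102 by 0.60 (limma adjusted p = 0.00155), in CDK2-/- by 0.42 (limma adjusted p = 0.00918, lost without WT replicate 1) and in R50 by 0.85 (limma adjusted p = 0.00178). WT was the lowest group on this probe, whereas WT+NU6102 was the lowest on the KRT86 probe. The KRT81 and KRT85 probes, the other hair genes listed for it, were not called in any comparison, with log2 fold changes between -0.13 and 0.07. A second KRT83 probe, listed for KRT83 and KRT86 only, was well above background on 1 CDK2-/- array and no other. It was therefore not tested. Its means were -4.79 in WT, -6.01 in WT+NU6102, -5.24 in CDK2-/- and -4.46 in R50, too near background for the groups to be ranked. KRT31 read -2.62 and -2.19 in WT, -2.25 and -1.99 in WT+NU6102, -1.24 and -1.46 in CDK2-/-, and -2.51 and -1.99 in R50. It was higher in CDK2-/- than in WT by 1.06 ± 0.23 (limma adjusted p = 0.0204) and lower in R50 than in CDK2-/- by 0.91 (limma adjusted p = 0.0303). Both KRT31 calls were lost without either CDK2-/- array, the first also without WT replicate 1 and the second also without R50 replicate 1 and within the slide alone.

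KRT222, a keratin-like gene at the edge of the chromosome 17 cluster, read -0.70 and -0.72 in WT, -1.47 and -1.55 in WT+NU6102, -0.32 and -0.46 in CDK2-/-, and -0.87 and -0.75 in R50. It fell by 0.80 with NU6102 (limma adjusted p = 0.000688) and was lower in R50 than in CDK2-/- by 0.42 (limma adjusted p = 0.00862). In CDK2-/- it was 0.32 above WT (limma adjusted p = 0.0246), a call lost without either WT array or CDK2-/- replicate 1.

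The remaining keratins gave no called difference. There were 12 tested genes called in none of the 4 comparisons: KRT3, KRT10, KRT16, KRT17, KRT33A, KRT39, KRT73, KRT74, KRT76, KRT78, KRT81 and KRT85. In 7 of these (KRT3, KRT10, KRT39, KRT73, KRT78, KRT81 and KRT85) the probe was detected on all 8 arrays, and their log2 fold changes lay between -0.32 and 0.19. In the other 5, near background, the range was wider, from -1.16 to 1.21, and the SE of each was 0.277 to 0.469. No probe was tested for 25 genes. Of those, 19 were not well above background on any array: KRT1, KRT2, KRT5, KRT6B, KRT6C, KRT12, KRT24, KRT25, KRT27, KRT33B, KRT36, KRT37, KRT38, KRT40, KRT71, KRT75, KRT77, KRT82 and KRT84. KRT26, KRT28, KRT35 and KRT72 were above it on 1 array, and KRT34 and KRT79 on 2 arrays of different groups.

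Neighbouring genes of a cluster did not all share 1 pattern. KRT8 and KRT18, next to each other among the tested genes of chromosome 12, ranked the groups alike. On chromosome 12, KRT80 and KRT86 were called higher in R50 than in WT, while KRT7 and KRT81, which lie between them, read 0.24 and -0.04 and were not called. KRT6A, called higher with NU6102, lay between KRT85 (0.07) and KRT74, neither of them called. KRT74 was well above background on 1 WT array and on no WT+NU6102 array. On chromosome 17, KRT20 and KRT23 are next to each other among the tested genes. They fell together with NU6102, but in CDK2-/- KRT20 was lower by 0.64 and KRT23 higher by 1.95, and in R50 they again stood on opposite sides of WT. KRT32, KRT13, KRT15 and KRT19, which follow each other among the tested genes, were called lower with NU6102 and higher in R50, each by its own amount.

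**Figure D4:**
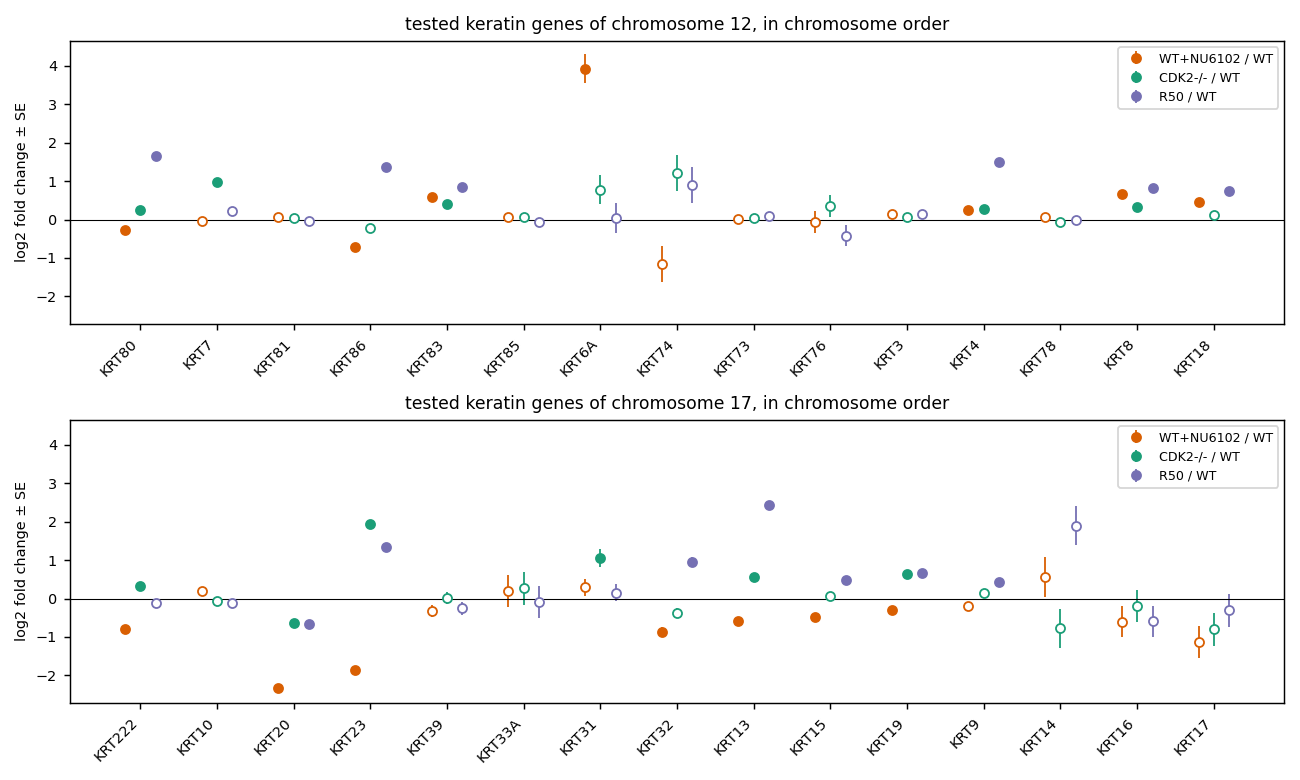
Log2 fold change ± SE against WT of the tested keratin genes in their order along chromosomes 12 and 17, 1 colour per comparison. Filled points were called and open points were not. KRT6A stands out on chromosome 12 with NU6102, and KRT20 and KRT23 lie side by side on chromosome 17 with opposite signs in CDK2-/- and R50.

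Related gene lists were counted by gene, each against WT. Of all tested genes, 24.4% were higher and 21.0% lower with NU6102, 16.6% higher and 14.7% lower in CDK2-/-, and 10.3% higher and 13.0% lower in R50. Of 13 tested desmosome and plakin genes, 2 were higher and 5 lower with NU6102, 4 higher and 2 lower in CDK2-/-, and 3 higher and 3 lower in R50. DSC2, a desmosomal cadherin, read -1.05 and -1.26 in WT, -1.62 and -1.45 in WT+NU6102, 0.55 and 0.58 in CDK2-/-, and -0.86 and -0.74 in R50, so it was highest in CDK2-/- (1.72 above WT, limma adjusted p = 0.00026). PPL, which codes for periplakin, a linker of keratin filaments to desmosomes, read 0.92 and 1.0 in WT, 0.33 and 0.25 in WT+NU6102, 0.77 and 0.98 in CDK2-/-, and 1.76 and 1.81 in R50. PPL was lowest with NU6102 (-0.67, limma adjusted p = 0.0017) and highest in R50 (0.83, limma adjusted p = 0.003). DSC3, a desmosomal cadherin with the largest difference of the list, read -3.59 and -3.69 in WT, -3.78 and -3.89 in WT+NU6102, -1.74 and -1.94 in CDK2-/-, and -6.74 and -5.22 in R50. Like DSC2, it was highest in CDK2-/-, 1.80 above WT (limma adjusted p = 0.0348). Unlike DSC2, it was lowest in R50. No R50 array of DSC3 was well above background, so R50 was at least 2.58-fold below WT (limma adjusted p = 0.0215) and at least 8.96-fold below CDK2-/- (limma adjusted p = 0.00196). PLEC, which codes for the filament linker plectin and was chosen after its values were seen, rose with NU6102 by 0.78 (limma adjusted p = 0.000936). PLEC was 1 of the 2 higher there, while JUP, 1 of the 5 lower, changed by more, at -0.86 (limma adjusted p = 0.000219).

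VIM, the intermediate filament gene of mesenchymal cells, which carcinoma cells in culture often express beside keratins, read -2.59 and -2.68 in WT, -3.31 and -3.47 in WT+NU6102, -4.82 and -4.77 in CDK2-/-, and -3.16 and -3.27 in R50. It was lower than WT in each of the 3 groups, most in CDK2-/- (-2.16, limma adjusted p = 7e-05). The CDK2-/- values of VIM lay near the lowest signals well above background on those arrays, -5.28 and -4.94. The size of that difference is therefore uncertain. In the mesenchymal marker list, 5 of 8 genes were tested. Of these, 1 was higher and 2 lower with NU6102, 1 higher and 2 lower in CDK2-/-, and 2 higher and 1 lower in R50, and COL1A2 and COL3A1 were not above background on any array. With 5 genes these counts can be read only loosely against the shares over all genes given for the desmosome list. The part of these genes in the keratin values was not tested.

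Of 12 tested regulators and chaperones of keratins, 2 were higher and 4 lower with NU6102, 7 higher and 1 lower in CDK2-/-, and 4 higher and 3 lower in R50. Over all tested genes the shares were 24.4% and 21.0%, 16.6% and 14.7%, and 10.3% and 13.0% in the same order. ELF3, an epithelial transcription factor, read 2.00 and 1.96 in WT, 0.52 and 0.54 in WT+NU6102, 2.55 and 2.67 in CDK2-/-, and 2.99 and 2.89 in R50. It therefore had called differences of the same signs against WT as KRT19, KRT23, KRT13 and KRT80. For ELF3 these were -1.45, 0.63 and 0.96 (limma adjusted p = 0.00013, 0.0015 and 0.00082). Some of the KRT13 and KRT80 calls were lost without single arrays, as given above. Not all keratins shared these signs, as KRT8 and KRT18 were higher with NU6102 and KRT20 was lower in all 3 comparisons. KLF5, a factor of proliferating gut epithelium, was highest in R50, 1.44 above WT (limma adjusted p = 0.00036), as were KRT13, KRT4 and KRT80. GRHL3, a factor of the epidermal barrier, was highest in CDK2-/-, 4.66 above WT (limma adjusted p = 0.00026). The part of these factors in the keratin values was not tested. Of 11 tested epidermal differentiation genes, 1 was higher and 4 lower with NU6102, 6 higher and 1 lower in CDK2-/-, and 4 higher and 0 lower in R50. Among them KLK5, a skin protease, was lower with NU6102 by 0.97 and higher in CDK2-/- by 0.99 and in R50 by 1.38, all 3 called.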

How the data were processed

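RNA of 4 groups of HCT-116 cells was measured on 8 Agilent arrays. The authors deposited 1 Feature Extraction (version 11.5.1.1) scan per array, with background-corrected intensity per spot, and a table of processed log2 values centred on each probe's median. From the deposited intensity, log2 was taken, the 75th percentile of non-control spots of the array subtracted, outlier spots left out and spots of a probe averaged (R 4.3.3). All 28677 tested probes were fitted with limma 3.58.1 on group means, 2-sided, with Benjamini-Hochberg adjustment, after a test on simulated data. "At least" folds were taken against the higher of the array's lowest signal well above background and the probe's own signal. Array annotation gave gene names, coordinates and sequences. Full array values are given for keratins with an F-test adjusted p under 0.001, or called at 2-fold in any comparison, and for KRT8, KRT18, KRT19 and KRT20. From other lists, up to 3 called genes of large change and VIM are named, with PLEC and JUP added after their values were seen. The keratin members, gene lists and naming rule were chosen with earlier results of these data known. Alternatives were another background correction, quantile scaling, other filters, the deposited processed values, a trended variance, a replicate block, fits within a slide, left-out arrays, other probes and the methods' t-test and ANOVA. Plots were made with matplotlib 3.10.9.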

Additional observations from a re-analysis of the deposited data

How the results depend on the processing

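Keratin probes called numbered 18 with NU6102, 12 in CDK2-/-, 17 in R50 and 18 in R50 against CDK2-/-. With normexp correction, quantile scaling, the strict filter, the deposited processed values and a trended variance these keratin counts stayed within 1.5 times. Sizes of dim keratins did not: normexp correction moved the fitted log2 fold change of KRT6A with NU6102 from 3.93 to 1.76, KRT20 with NU6102 from -2.33 to -0.79, and KRT13 in R50 from 2.43 to 1.62. Testing all 50568 probes with no filter on dim ones left 7 keratin probes in CDK2-/- and 6 in the F-test (16). A 2-fold minimum left 3, 3, 5 and 6. The methods' t-test gave 15, 14, 17 and 18 keratin probes at its unadjusted threshold, and 8, 3, 0 and 8 after Benjamini-Hochberg adjustment, where the same test called 5299, 1434, 13 and 2167 of all 28677 probes; the 0 stands beside 17 keratin probes by limma. The methods' ANOVA gave 10 in place of 16. Leaving out 1 array gave 16 to 19, 7 to 12, 16 to 18 and 17 to 19, and 6 to 7 for the F-test; the array left alone was assumed to vary like the others. Fits within a slide gave 16 with NU6102 and 19 for R50 against CDK2-/-. KRT8 in CDK2-/- reversed to -0.033 on another probe, without a call. Slide as a random block could not be fitted, as each group lay on 1 slide. Where no cause is plain from the setting, the cause was not tested. Precision is limited by 2 arrays per group and, for KRT6A, KRT14, KRT16, KRT17, KRT20 and VIM in CDK2-/-, by signals near background.

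The replicate numbers did not pair the arrays, since deviations of same-numbered arrays correlated at -0.03 to 0.05. With the number as a replicate block, the keratin probes called again numbered 18, 12, 17 and 18, with KRT9 lost and KRT14 gained in R50 against WT, while the F-test count was 9 in place of 16.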

Other observations

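A few keratin probes that were not tested had a single bright array. KRT28, an inner root sheath keratin of the hair follicle, read -1.52 on WT replicate 2, whereas its other 7 arrays read between -5.58 and -4.90. KRT72, another inner root sheath keratin, read -1.61 on WT+NU6102 replicate 1, against -4.94 or lower on the other 7 arrays. In both cases the duplicate array of the same group was at the level of the rest.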
